A study of Mus musculus with 6 samples.

Results

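The 35 genes described here are germline and meiosis genes, chosen by name as factors that act in germ cells and meiosis, and all 35 were found among the 78298 genes of the deposited expression table. They were measured by poly(A) RNA sequencing in mouse epiblast-like cells (EpiLCs, mEpiLC in the labels), a culture state that resembles the epiblast after implantation, and in mouse embryonic stem cells (ESCs, mESC), the cultured counterpart of the naive epiblast. Each group had 3 libraries labelled as biological replicates. All 6 came from wild-type cells of 1 clonal line, BVSC clone H18, so both states share its genotype and its single clone. In the field the name BVSC stands for reporter transgenes for the germ cell genes Prdm1 and Dppa3, a point that the labels do not spell out. Values are TPM (a length-corrected share of the library, scaled so that each library totals 1000000), given for EpiLC replicates 1, 2 and 3 and then for ESC replicates 1, 2 and 3. Differences are given as EpiLC minus ESC in log2(TPM + 1), with the standard error (SE) and the limma p-value adjusted over all tested genes. That scale understates changes of weakly expressed genes.

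Germ cells reduce their chromosome number in meiosis, in which homologous chromosomes are cut, paired along a protein scaffold called the synaptonemal complex and recombined. They also silence transposons with PIWI proteins and their small RNAs (piRNAs), which are assembled by tudor-domain proteins in a cytoplasmic structure called nuage. Many genes of both systems have CpG-rich promoters that carry DNA methylation in somatic cells and are also repressed by the polycomb complex PRC1.6, whose subunits E2F6 and MGA bind DNA. Pluripotent cells are known to transcribe part of this set.

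The libraries matched their labels. All 7 naive markers were lower and all 6 EpiLC markers higher in EpiLCs. Between 13807 and 13983 genes reached 1 TPM in an EpiLC library and between 13610 and 13822 in an ESC library. Each library summed to 1000000 TPM, so read depth is unknown. Primitive endoderm markers summed to between 7.30 and 11.0 TPM in EpiLCs and between 5.09 and 6.06 TPM in ESCs, a sum carried in EpiLCs by Dab2, at 7.12 TPM in EpiLCs and 0.123 TPM in ESCs. Gata4 was lower in EpiLCs, and the untested Gata6, Sox17 and Pdgfra had lower values there without overlap. Sox7, also untested, had higher values in EpiLCs without overlap, averaging 0.208 TPM there and 0.0381 TPM in ESCs. Fibroblast feeder markers summed to between 12.6 and 15.8 TPM in EpiLCs and between 3.18 and 5.70 TPM in ESCs, most of it Thy1. Of these 6, Thy1 and Dcn were tested and higher, with Dcn listed at 0 in every ESC library. Dcn passed the limit for testing through its EpiLC values, so its call carries little weight. The untested Col1a2 also had higher values in EpiLCs without overlap, averaging 0.412 TPM there and 0.0133 TPM in ESCs. Col1a1 averaged 0.380 TPM in EpiLCs and 0.918 TPM in ESCs, and Postn and Lum were near 0 in both. The part of such cells in the results was not tested. Markers of 2-cell-like cells summed to between 5.22 and 6.59 TPM in EpiLCs and between 7.08 and 9.01 TPM in ESCs. No label tells whether the replicates were separate cultures, and the p-values cover only the variation seen among the 6 libraries, which may be technical.

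Most of these genes were transcribed in both states. In 24 of the 35 every library had at least 1 TPM, 20 reached a mean of 10 TPM in at least 1 state, and 11 did so in both. The synaptonemal complex gene Syce2 was the most abundant, with rank 658 of all genes in EpiLCs and rank 1263 in ESCs by mean TPM. At the other end Spo11, Tdrd9, Mei1 and Sycp2 stayed under 1 TPM in every library. Together the 35 genes summed to 652, 628 and 595 TPM in EpiLCs, against 529, 479 and 560.4 TPM in ESCs. These sums did not overlap, but the separation rested on Syce2. Without Syce2 the other 34 genes summed to 451, 384 and 373 TPM in EpiLCs, against 412, 345 and 445 TPM in ESCs, and the groups overlapped. In bulk samples, fewer expressing cells and less RNA per cell cannot be told apart.

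**Figure D1:**
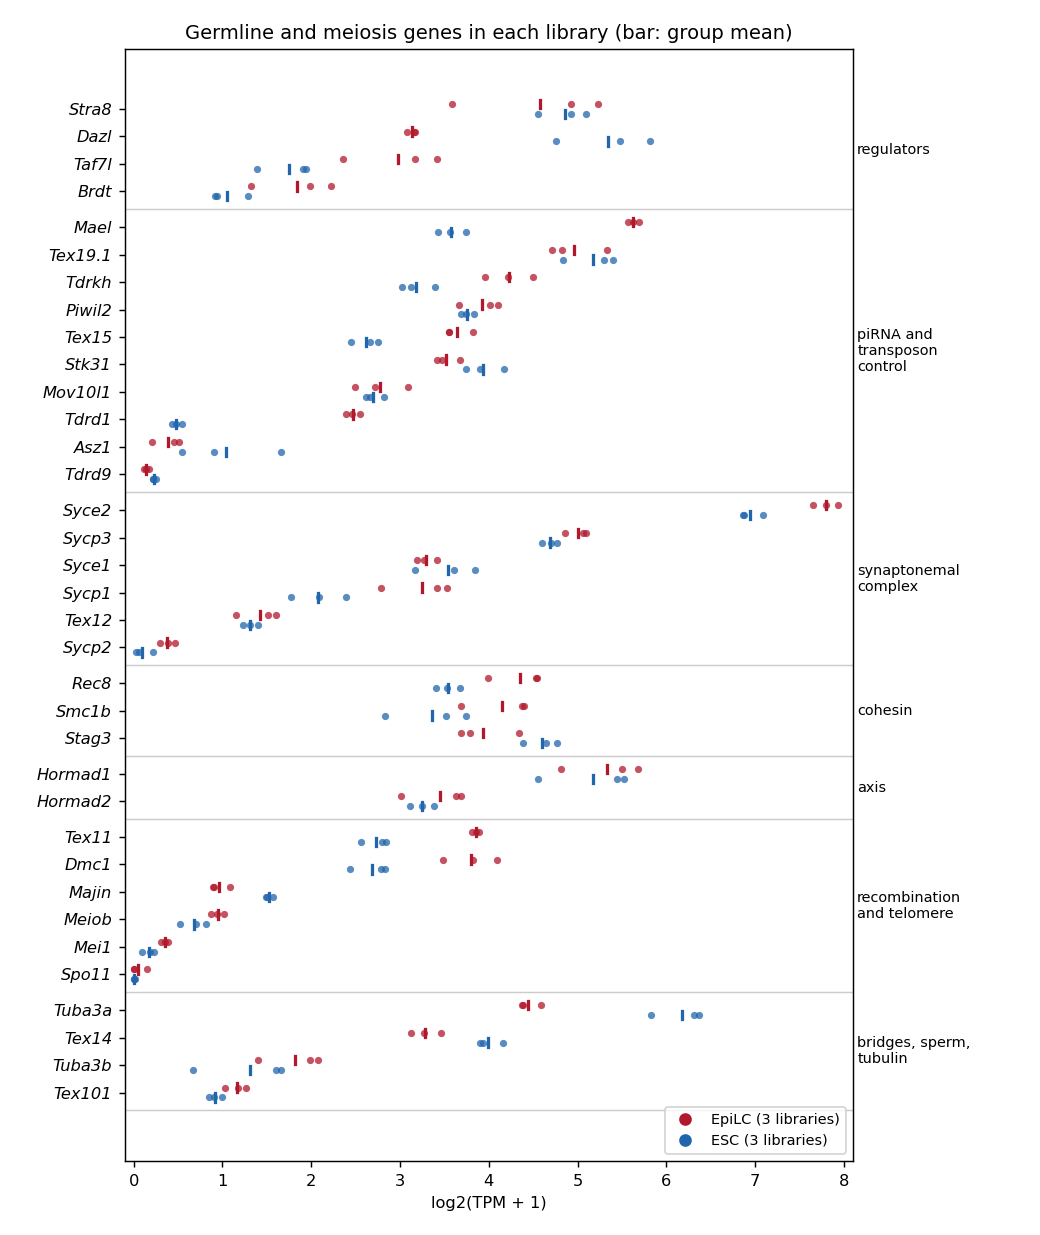
Level of each of the 35 genes as log2(TPM + 1) on the x axis, with the genes on the y axis grouped by role. Red points are the 3 EpiLC libraries and blue points the 3 ESC libraries, and bars are group means. Syce2 stands furthest right in both states, and Dazl, Tuba3a, Mael and Tdrd1 show wide gaps between the groups.

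Genes with a mean of at least 1 TPM over the 6 libraries were tested, which left 29 of the 35. Of these, 13 were higher and 6 lower in EpiLCs at an adjusted p under 0.05, and 10 did not pass. Over all 14036 tested genes 36.1% were higher and 30.9% lower, 66.9% in total, so a call by itself was common in this comparison. The share of the 29 that was called, 65.5%, was close to that background. The share called higher was 44.8% and the share called lower 20.7%. The median log2 difference was 0.24 for the 29 genes and 0.04 for all tested genes. Changes of at least 1 on the log2 scale were called for 8 higher and 2 lower genes, where 9.87% and 9.4% of all tested genes had such changes. The EpiLC and ESC values did not overlap for 19 of the 29, or 65.5%, against 71.5% of all tested genes. Tdrd1, Majin and Tex101 entered the test although 1 of their group means was under 1 TPM. Tdrd1 and Tex101 did so through their EpiLC values and Majin through its ESC values. The counts of called genes include Tdrd1 and Majin. Asz1, Meiob, Mei1, Spo11, Sycp2 and Tdrd9 were under the limit and were not tested.

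**Figure D2:**
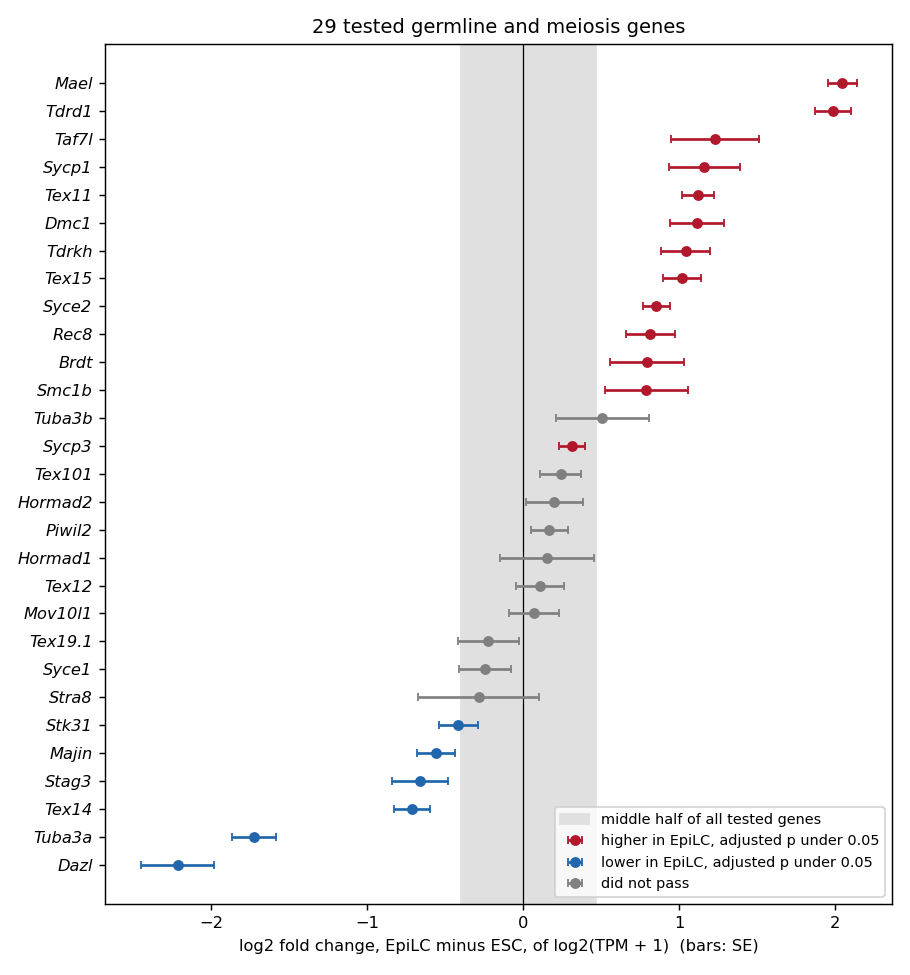
Log2 difference, EpiLC minus ESC, with its SE for the 29 tested genes. Red genes were higher and blue genes lower in EpiLCs at an adjusted p under 0.05, grey genes did not pass, and the grey band spans the 25th to 75th percentile of all tested genes (-0.40 to 0.47). Mael and Tdrd1 lie furthest right at 2.05 and 1.99, and Dazl furthest left at -2.21.

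Promoters of the called genes with the largest changes in each direction are shown, 4 in all, chosen by log2 difference and not by motif. The windows run from 250 bases before to 50 bases after the RefSeq start (build GRCm38.p6), 5′ to 3′ on the gene strand. Capitals mark TCCCGC, a sequence of the type bound by E2F6, and CACGTG, the E-box bound by MGA with its partner MAX, each searched on both strands. The motifs do not overlap each other in these windows. Dazl lies on the minus strand at chr17:50293571-50293870, Tuba3a on the minus strand at chr6:125286032-125286331, Mael on the minus strand at chr1:166238695-166238994, and the first of 3 starts of Tdrd1 on the plus strand at chr19:56825959-56826258.
Dazl: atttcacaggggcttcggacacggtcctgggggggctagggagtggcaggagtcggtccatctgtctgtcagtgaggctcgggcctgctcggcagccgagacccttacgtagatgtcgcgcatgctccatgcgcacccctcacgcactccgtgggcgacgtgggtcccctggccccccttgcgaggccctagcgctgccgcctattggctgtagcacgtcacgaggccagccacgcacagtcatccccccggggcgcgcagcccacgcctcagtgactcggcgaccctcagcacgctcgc
Tuba3a: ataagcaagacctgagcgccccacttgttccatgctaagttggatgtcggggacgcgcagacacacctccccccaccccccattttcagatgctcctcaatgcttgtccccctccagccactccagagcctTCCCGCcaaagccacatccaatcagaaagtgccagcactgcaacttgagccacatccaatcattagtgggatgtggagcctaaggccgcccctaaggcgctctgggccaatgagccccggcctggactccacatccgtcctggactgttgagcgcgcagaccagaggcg
Mael: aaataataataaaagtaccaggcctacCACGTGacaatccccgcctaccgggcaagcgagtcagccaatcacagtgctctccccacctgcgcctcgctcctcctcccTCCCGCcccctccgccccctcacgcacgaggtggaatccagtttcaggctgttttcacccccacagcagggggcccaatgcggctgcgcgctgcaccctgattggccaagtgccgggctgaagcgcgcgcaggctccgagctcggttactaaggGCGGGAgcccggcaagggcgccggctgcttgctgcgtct
Tdrd1: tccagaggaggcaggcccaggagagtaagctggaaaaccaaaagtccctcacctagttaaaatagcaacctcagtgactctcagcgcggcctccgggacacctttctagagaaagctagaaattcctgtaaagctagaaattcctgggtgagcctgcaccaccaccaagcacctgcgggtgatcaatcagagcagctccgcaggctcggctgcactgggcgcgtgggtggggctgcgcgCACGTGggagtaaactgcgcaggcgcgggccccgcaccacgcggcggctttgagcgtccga
The Mael window held both motifs, the Tdrd1 window an E-box, the Tuba3a window the E2F6-type sequence, and the Dazl window neither. Both Mael and Tdrd1 rose, and both Tuba3a and Dazl fell. A link between motif and direction was not tested in these 4 genes. The last of the 3 Tdrd1 windows held neither motif and 3 CpG.

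RefSeq gave a promoter for 29 of the 35 genes, with 34 starts in all. The last 20 bases of 30 of these windows were found in a GENCODE transcript of the same gene, which checks their orientation. The printed Tuba3a window is among the 4 that were not found, as are the Syce2 and Stk31 starts from which the sites at -88 and -55 are counted. CACGTG was present in 16 of the 34 windows, or 47.1%, from 13 genes. Among all 32851 windows in the RefSeq table it was present in 7.15%, and among those of genes tested here in 10.1%. TCCCGC was present in 47.1% of the 34 windows, against 20% of all windows and 35.4% of those of tested genes. Both motifs together were found in 8 of the 34, or 23.5%, against 1.99% of all windows, 3.79% of those of tested genes and 4.64% of those of tested genes with at least 10 CpG. The windows of these genes were also richer in CpG, with a median of 19.5 CpG dinucleotides against 7 over all windows and 20 over those of tested genes. With windows of at least 10 CpG alone, 50% of these genes' windows held the E-box, against 10.9% of all such windows and 11.3% of those of tested genes. For TCCCGC the same shares were 50%, 40.3% and 42.1%, so its excess was smaller among such windows. CpG content was not matched by this floor, with medians of 20, 22 and 24 CpG in the same order. Hormad1 contributes 2 nearly identical windows and Stk31 and Tdrd1 contribute overlapping ones, so the windows are not independent.

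Of 16 distinct E-box sites, 12 began within 100 bases upstream of the RefSeq start used and 4 further upstream. From the other Stk31 start, which was found in a transcript, its site is at -120, and positions over all windows were not compared. The sites of the other called genes are given with 10 bases on either side and the E-box in capitals, since they show how the flanks vary around the same core.
Sycp1, from -94: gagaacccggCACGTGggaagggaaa
Brdt, from -78: caggcacagtCACGTGgcagaccctg
Syce2, from -88: tttcattcagCACGTGctcggggcgg
Sycp3, from -64: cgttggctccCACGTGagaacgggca
Sycp3, from -43: gggcatggagCACGTGctaggaggcg
Taf7l, from -49: cctcttatacCACGTGacagaactcg
Stag3, from -170: cgctggagccCACGTGacaggactgc
Stk31, from -55: gccggccaccCACGTGaccagggctg
Positions count the first base of the E-box from the RefSeq start, with negative values upstream. Genes that rose and genes that fell both carried the motif. Of 11 genes called higher with a window, 7 had an E-box, and of 5 called lower, 2 did (Stag3 and Stk31). Syce2 counts among the 7 only through its start that was not found in a transcript. Its other window, whose start was found, held no E-box. Hormad1, Tex12 and Mov10l1 had the motif and did not pass the test. A match in a window is a description of the letters and not evidence of binding.

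**Figure D3:**
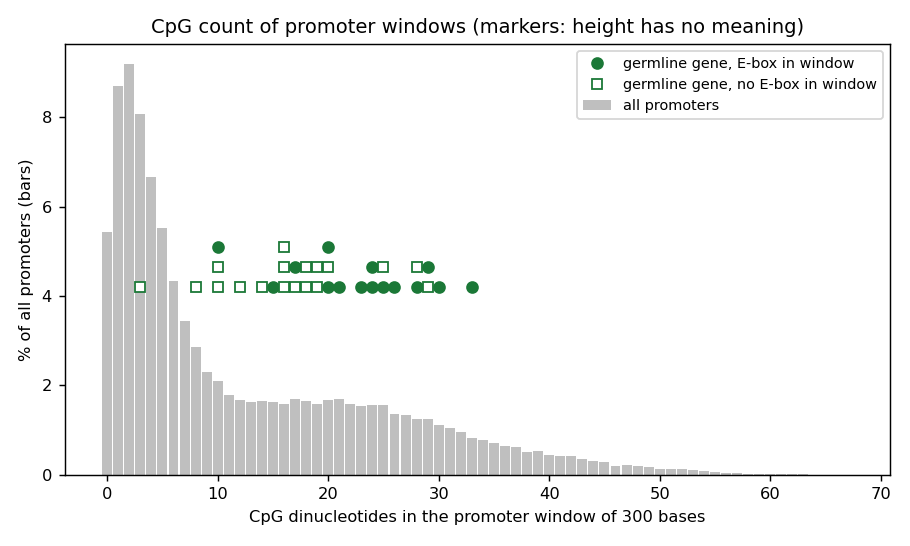
Number of CpG dinucleotides in promoter windows of 300 bases on the x axis, with bars for the percent of all 32851 windows. Green markers show the germline and meiosis genes' windows, filled where the window holds an E-box; a gene's starts with equal counts share a marker. They range from 3 to 33 CpG, and the filled markers all lie at 10 or more.

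Regulators of germ cell RNA and transcription moved in both directions. Dazl (ENSMUSG00000010592, chromosome 17), an RNA-binding protein that controls translation in germ cells, had 7.93, 7.99 and 7.43 TPM in EpiLCs, against 43.4, 26.0 and 55.3 TPM in ESCs. The EpiLC values were nearly alike, while the ESC values were spread, with replicate 2 the lowest of the 3. Dazl fell by 2.21 on the log2 scale (SE 0.23, adjusted p = 8.9e-05). Taf7l (chromosome X), the germ cell paralog of the general transcription factor subunit Taf7, had 9.69, 4.11 and 7.97 TPM in EpiLCs, against 2.75, 1.61 and 2.85 TPM in ESCs. The groups did not overlap, and replicate 2 was lowest in both. Taf7l rose by 1.23 (SE 0.28, adjusted p = 0.0053). Brdt, the testis bromodomain protein that reads acetylated histones, had 2.95, 3.65 and 1.498 TPM in EpiLCs, against 0.881, 0.923 and 1.43 TPM in ESCs. Its values did not overlap, but the lowest EpiLC library was close to the highest ESC library. The log2 difference of 0.79 had an SE of 0.24 (adjusted p = 0.019), and the call was lost without EpiLC replicate 1, EpiLC replicate 2, ESC replicate 1 or ESC replicate 2 (adjusted p = 0.062, 0.056, 0.059 and 0.052; 0.0021 to 0.11 over all alternatives). Stra8, which starts meiosis in response to retinoic acid, was abundant in both states, with 36.5, 29.3 and 11.0 TPM in EpiLCs, against 29.5, 33.1 and 22.5 TPM in ESCs. The groups overlapped, with EpiLC replicate 3 far under the rest, and Stra8 did not pass (log2 difference -0.28, SE 0.39). Without EpiLC replicate 3 the difference was 0.21.

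The piRNA and transposon-control genes included the largest increase of a tested member on the log2(TPM + 1) scale, that of Mael. By ratio of mean TPM, Tdrd1 rose more than Mael. Mael (ENSMUSG00000040629, chromosome 1), a nuage protein needed for transposon silencing, had 48.3, 46.5 and 50.6 TPM in EpiLCs, against 9.79, 12.4 and 10.8 TPM in ESCs. Every EpiLC value was far above every ESC value, and Mael rose by 2.05 (SE 0.09, adjusted p = 1.3e-06). Tdrd1 (ENSMUSG00000025081, chromosome 19), a tudor scaffold that binds PIWI proteins, had 4.51, 4.84 and 4.24 TPM in EpiLCs, against 0.389, 0.454 and 0.345 TPM in ESCs. That is an 11.4-fold ratio of mean TPM, and a log2 difference of 1.99 (SE 0.12, adjusted p = 4.3e-06) on the scale with 1 TPM added, or 3.23 with 0.1 TPM added. Tdrd1 averaged 0.396 TPM in ESCs and passed the limit for testing through its EpiLC values, so its call carries little weight. Tdrkh, which helps trim piRNAs at mitochondria, had 17.6, 21.7 and 14.5 TPM in EpiLCs, against 7.74, 9.55 and 7.12 TPM in ESCs. Tex15, a factor of transposon silencing in fetal germ cells, had 10.7, 10.7 and 13.1 TPM in EpiLCs, against 4.46, 5.34 and 5.72 TPM in ESCs. Both genes were higher without overlap between groups, rising by 1.04 (SE 0.16, adjusted p = 5.9e-04) and 1.02 (SE 0.12, adjusted p = 1.7e-04).

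Other members of the same system did not rise. Stk31, a tudor-domain kinase, had 11.7, 9.70 and 10.1 TPM in EpiLCs, against 13.9, 12.4 and 16.9 TPM in ESCs. It fell by 0.41 (SE 0.13, adjusted p = 0.020) without overlap. The call was lost without EpiLC replicate 2, EpiLC replicate 3 or ESC replicate 3 (adjusted p = 0.063, 0.06 and 0.062; 0.0093 to 0.063 over all alternatives). Piwil2, the PIWI protein that binds piRNAs, had 15.1, 16.1 and 11.7 TPM in EpiLCs, against 12.4, 11.9 and 13.3 TPM in ESCs, with overlapping groups. Piwil2 did not pass the test (adjusted p = 0.25), and passed without EpiLC replicate 3 (adjusted p = 0.025; 0.025 to 0.78 over all alternatives). The helicase gene Mov10l1, which acts in piRNA biogenesis, had 5.58, 7.54 and 4.65 TPM in EpiLCs, against 5.13, 6.08 and 5.31 TPM in ESCs. Its log2 difference was 0.07 with an SE of 0.16, and -0.091 without EpiLC replicate 2. Tex19.1, a retrotransposon control factor of germ cells and ESCs, had 39.4, 25.1 and 27.3 TPM in EpiLCs, against 38.5, 27.5 and 41.1 TPM in ESCs, and did not pass. Asz1, which anchors nuage to mitochondria, had 0.423, 0.156 and 0.372 TPM in EpiLCs, against 0.875, 0.453 and 2.17 TPM in ESCs. Tdrd9, a helicase of the nuclear piRNA branch, was between 0.0833 and 0.125 TPM in EpiLCs and between 0.162 and 0.187 TPM in ESCs. Both were under the limit for testing, and neither had overlapping groups.

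Components of the synaptonemal complex differed widely in level. Syce2 (ENSMUSG00000003824, chromosome 8), a central element protein, had 201, 244 and 222 TPM in EpiLCs, against 116, 135 and 116 TPM in ESCs. The groups were well apart, and Syce2 rose by 0.86 (SE 0.09, adjusted p = 6.9e-05). Gcdh, at a mean of 46.9 TPM, overlaps Syce2 on the opposite strand in the GENCODE M21 annotation, and the sources used here do not give how strand was used in quantification. Sycp1, the transverse filament protein that bridges paired chromosomes, had 10.5, 5.89 and 9.68 TPM in EpiLCs, against 3.24, 2.40 and 4.25 TPM in ESCs. Its values did not overlap and were lowest in replicate 2 of both groups, and it rose by 1.16 (SE 0.23, adjusted p = 0.0025). Sycp3, of the lateral element, had 32.5, 33.2 and 28.1 TPM in EpiLCs, against 23.3, 26.4 and 25.1 TPM in ESCs. It rose by 0.31 (SE 0.08, adjusted p = 0.011), a small change without overlap, and it shares its locus with Chpt1 (mean 17.4 TPM) on the opposite strand. The partner of Sycp3, Sycp2, had 0.376, 0.226 and 0.307 TPM in EpiLCs, against 0.0406, 0.0174 and 0.161 TPM in ESCs, far under Sycp3 in every library. The central element genes Syce1 and Tex12 did not pass. Syce1 had 9.71, 8.17 and 8.67 TPM in EpiLCs, against 11.2, 8.03 and 13.3 TPM in ESCs, and passed as lower without ESC replicate 2 (log2 difference -0.43, adjusted p = 0.017; 0.017 to 0.62 over all alternatives). The pseudogene Sycp1-ps1 is 92.4% identical to Sycp1 over 74.5% of its transcript. Tex12 was between 1.22 and 2.05 TPM in EpiLCs and between 1.35 and 1.63 TPM in ESCs.

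The meiotic cohesin subunits, which hold sister chromatids together in meiosis, did not change in step. Rec8, the meiotic kleisin, had 22.1, 22.3 and 14.9 TPM in EpiLCs, against 11.8, 10.6 and 9.58 TPM in ESCs, without overlap, and rose by 0.82 (SE 0.16, adjusted p = 0.0022). Smc1b had 20.1, 11.9 and 19.7 TPM in EpiLCs, against 10.4, 6.14 and 12.4 TPM in ESCs. It was called higher (log2 difference 0.79, SE 0.27, adjusted p = 0.031), although EpiLC replicate 2 lay under ESC replicate 3. That call was lost without EpiLC replicate 1, EpiLC replicate 3 or ESC replicate 2 (log2 difference 0.67, 0.68 and 0.53, adjusted p = 0.101, 0.099 and 0.076; 4.2e-04 to 0.101 over all alternatives). Stag3 moved the other way, with 12.8, 19.2 and 11.9 TPM in EpiLCs, against 19.96, 23.9 and 26.2 TPM in ESCs, and fell by 0.66 (SE 0.18, adjusted p = 0.011). The axis proteins Hormad1 and Hormad2, which mark unpaired chromosomes, did not pass. Hormad1 had 50.2, 27.0 and 44.3 TPM in EpiLCs, against 42.6, 22.5 and 45.1 TPM in ESCs, so replicate 2 differed more from its own group than the groups did from each other. Hormad1 also has the pseudogenes Gm15529 and Gm7167, with 97.7% and 92.1% identity over 61% and 73.6% of its longest transcript. Its log2 difference of 0.15 was -0.02 without EpiLC replicate 1 and -0.16 without ESC replicate 2. Hormad2 had 11.4, 7.09 and 11.9 TPM in EpiLCs, against 8.50, 7.62 and 9.40 TPM in ESCs, and passed as higher without EpiLC replicate 2 (adjusted p = 0.015; 0.015 to 0.74 over all alternatives).

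Among the recombination genes of the set Dmc1 and Tex11 rose, while Spo11 was near 0. Dmc1, the meiotic strand exchange protein, had 16.1, 13.1 and 10.2 TPM in EpiLCs, against 5.91, 6.10 and 4.42 TPM in ESCs, and rose by 1.12 (SE 0.17, adjusted p = 7.0e-04). Tex11, an X-linked crossover factor, had 13.8, 13.5 and 13.1 TPM in EpiLCs, against 5.96, 4.88 and 6.15 TPM in ESCs. It rose by 1.12 (SE 0.10, adjusted p = 3.8e-05) with tight values in both groups. Spo11, which cuts the DNA to start recombination, was listed at 0, 0 and 0.112 TPM in EpiLCs and at 0, 0.00932 and 0 TPM in ESCs. Mei1, needed for those cuts, was at 0.233, 0.281 and 0.310 TPM in EpiLCs, against 0.171, 0.139 and 0.0658 TPM in ESCs. Meiob, a single-strand DNA-binding protein, was at 1.03, 0.920 and 0.833 TPM in EpiLCs, against 0.628, 0.431 and 0.762 TPM in ESCs. These low genes were not tested. Majin, which tethers telomeres to the nuclear envelope, had 1.13, 0.855 and 0.876 TPM in EpiLCs, against 1.97, 1.83 and 1.82 TPM in ESCs, and fell by 0.56 (SE 0.12, adjusted p = 0.0043), or by 0.91 with 0.1 TPM added. A transcript of Gm6610 is 94.2% identical to Majin over 48.8% of the longest Majin transcript.

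Of the 4 tubulin, bridge and sperm genes, 2 were lower in EpiLCs and 2 did not pass. Tuba3a, a testis alpha-tubulin, had 23.0, 19.7 and 19.8 TPM in EpiLCs, against 78.5, 56.0 and 81.8 TPM in ESCs. It fell by 1.73 (SE 0.14, adjusted p = 2.4e-05) with a wide gap between groups. Its copy Tuba3b had 3.22, 1.63 and 2.95 TPM in EpiLCs, against 2.03, 0.593 and 2.15 TPM in ESCs, and did not pass (adjusted p = 0.16), except without both replicate 2 libraries (adjusted p = 0.042) and in 1 other alternative (0.018 to 0.48 over all alternatives). The longest transcripts of the pair are 96.5% identical over 95.9% of Tuba3a, so the split of reads between them is uncertain. Gm5366 is also similar, with 90.9% identity over 89.7% of Tuba3a and 92.2% over 76.2% of Tuba3b. Tex14, needed for the bridges that join germ cells, had 10.02, 8.61 and 7.69 TPM in EpiLCs, against 13.9, 16.8 and 14.3 TPM in ESCs. It fell by 0.71 (SE 0.12, adjusted p = 9.4e-04) without overlap. Tex101, a germ cell surface glycoprotein, had 1.40, 1.27 and 1.05 TPM in EpiLCs, against 0.878, 0.7998 and 0.997 TPM in ESCs. Its groups did not overlap, yet it did not pass (adjusted p = 0.14), except without the variance trend (adjusted p = 0.041; 0.041 to 0.33 over all alternatives).

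Several germline genes are paralogs of genes that all cells use, so their levels can be set beside those of the counterpart as a percent of its TPM. Smc1b was at 15.1 ± 3.19% of Smc1a in EpiLCs and 8.05 ± 2.47% in ESCs (SD, n = 3 each, as for the other ratios). Rec8 was at 13.5 ± 2.52% of the mitotic kleisin Rad21 in EpiLCs and 7.42 ± 1.01% in ESCs. Taf7l was at 12.4 ± 4.70% of Taf7 in EpiLCs and 4.28 ± 0.918% in ESCs. In these 3 pairs the EpiLC and ESC libraries did not overlap, and neither Smc1a, Rad21 nor Taf7 passed the test.

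For other pairs the counterpart itself moved. Mov10l1 was at 17.8 ± 3.89% of Mov10 in EpiLCs and 4.37 ± 0.601% in ESCs, while Mov10 had 33.3 ± 3.97 TPM in EpiLCs and 127 ± 5.51 TPM in ESCs (log2 difference -1.90, adjusted p = 1.5e-06). Stag3 was at 14.5 ± 5.36% of Stag2 in EpiLCs and 58.6 ± 12.01% in ESCs, and Stag2 rose by 1.34 as Stag3 fell. Beside Stag1, which fell by 0.75, Stag3 was at 35.9 ± 9.14% in EpiLCs and 33.7 ± 3.60% in ESCs, with overlapping values. Tuba3a was at 3.23 ± 0.178% of Tuba1a in EpiLCs and 55.3 ± 10.7% in ESCs, as Tuba3a fell by 1.73 and Tuba1a rose by 2.30. Beside Tuba1b, which rose by 0.57, Tuba3a was at 1.04 ± 0.0842% in EpiLCs and 5.31 ± 0.835% in ESCs. No test was run on the ratios.

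**Figure D4:**
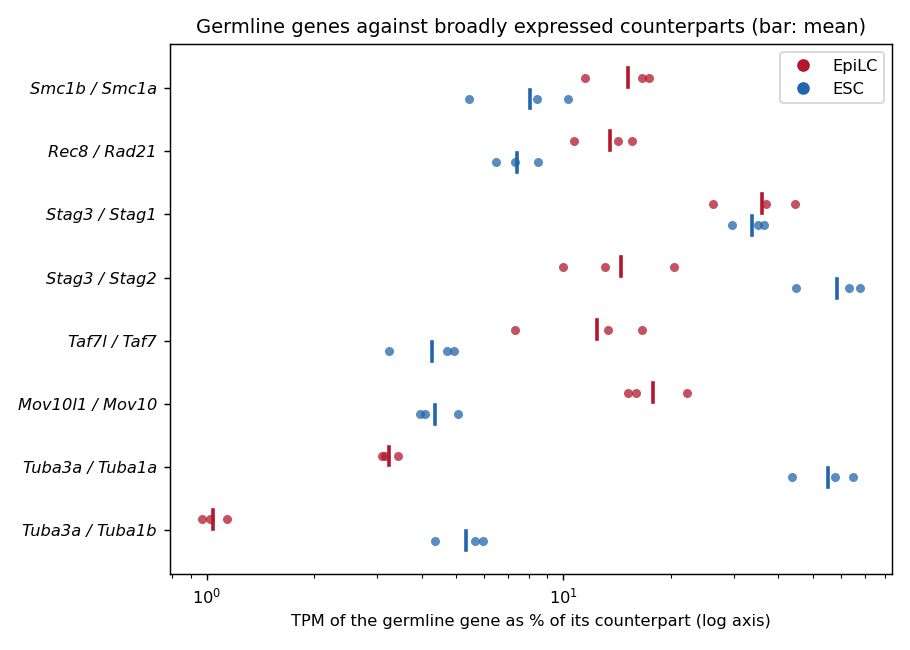
TPM of a germline gene as a percent of the TPM of its broadly expressed counterpart, on a log axis, with 1 pair per row. Red points are EpiLC libraries, blue points ESC libraries and bars their means. The 2 Tuba3a rows and the Stag3 to Stag2 row lie lower in EpiLCs, Stag3 to Stag1 overlaps, and the other 4 lie higher in EpiLCs.

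Part of the set varied between replicates in the same way in both states. Of the 29 tested genes, 10 were lowest in replicate 2 of both groups (34.5%), where 13.4% of all tested genes were. They were Hormad1, Hormad2, Sycp1, Syce1, Smc1b, Taf7l, Tuba3a, Tuba3b, Stk31 and Tex19.1, and the untested Asz1 and Sycp2 had the same order. Dazl, Tex11, Piwil2, Tex101 and the untested Meiob were also lowest in ESC replicate 2, but not in EpiLC replicate 2. In contrast, 5 genes were highest in replicate 2 of both groups (17.2%, against 17.7% of all tested genes), namely Mov10l1, Tdrd1, Tdrkh, Syce2 and Sycp3. The first replicate was lowest in both groups for 1 gene and the third for 5. Among related genes outside the set, 5 of 11 tested piRNA genes and 4 of 15 tested recombination genes were lowest in replicate 2 of both groups, but 0 of 6 meiotic entry regulators were.

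Other values that differed in replicate 2 are given beside this. Primordial germ cell markers summed to 95.0, 68.8 and 83.5 TPM in EpiLCs, against 138, 123 and 173 TPM in ESCs, lowest in replicate 2 of both groups. Within that list Dppa3, which had 33.6, 17.7 and 31.4 TPM in EpiLCs, against 51.1, 31.4 and 79.8 TPM in ESCs, and Tfap2c had this order. Ddx4 and Dnd1 were instead highest in replicate 2 of both groups. The markers of 2-cell-like cells and of naive ESCs did not share this order. What these replicate differences contributed to the group differences was not tested, but the counts without both replicate 2 libraries were 14 higher and 7 lower, a setting chosen after seeing the data. In it Tuba3b and Hormad2 passed as higher and Syce1 as lower, and Brdt was lost.

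**Figure D5:**
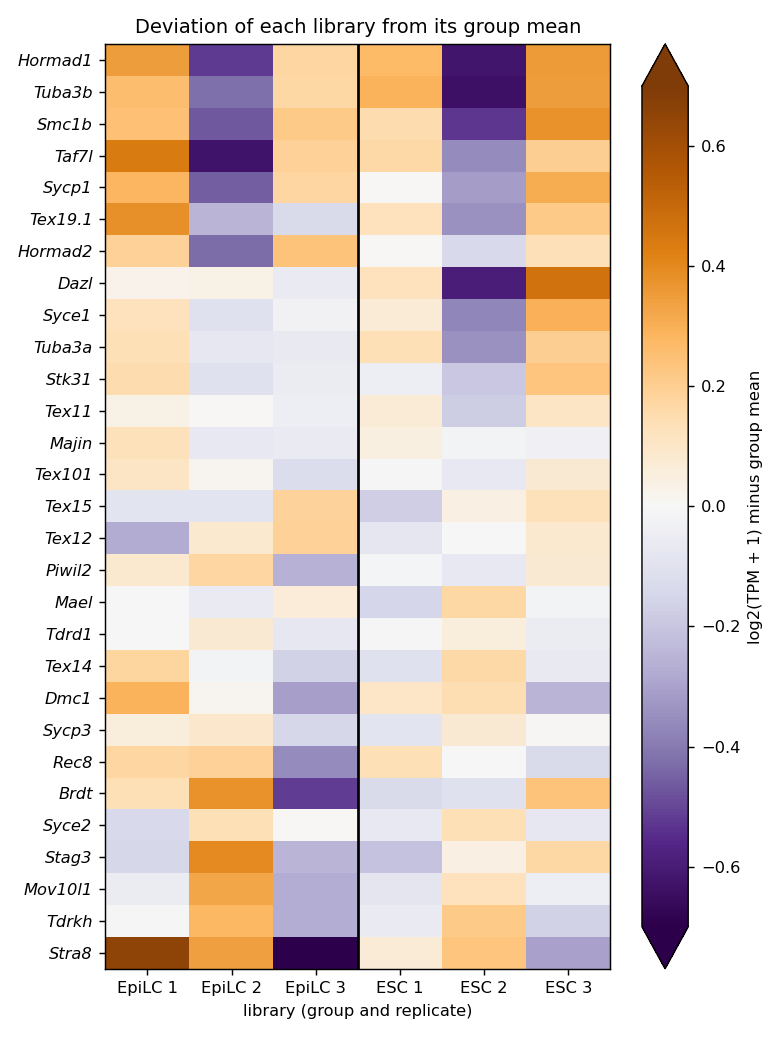
Deviation of each library from its own group mean in log2(TPM + 1), with the 29 tested genes as rows and the 6 libraries as columns, ordered by the mean deviation of the replicate 2 libraries. Purple is lower and orange higher, and values beyond the ends of the scale take the end colour. Hormad1, Tuba3b, Smc1b, Taf7l and Sycp1 at the top are purple in replicate 2 of both groups, while Tdrkh, Mov10l1 and Stra8 at the bottom are orange there.

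Genes that regulate entry into meiosis were mostly higher in EpiLCs, 5 of 6 rising, with a median log2 difference of 1.29, where 36.1% of all tested genes rose. Zglp1, Meiosin and Rbm46 averaged under 1 TPM in ESCs and passed the limit for testing through their EpiLC values, so their calls carry little weight for the list. Zglp1, a regulator of oogenic fate, rose by 1.65 to 4.59 ± 1.12 TPM in EpiLCs, against 0.779 ± 0.295 TPM in ESCs. Meioc, which stabilizes the meiotic programme, had 18.8 ± 1.37 TPM in EpiLCs and 5.56 ± 0.351 TPM in ESCs, a rise of 1.59. Meiosin, the partner of Stra8, rose by 1.40 and the RNA-binding protein gene Rbm46 by 1.18. The transcription factor gene Dmrt1 had 48.5 ± 5.37 TPM in EpiLCs and 40.8 ± 4.53 TPM in ESCs and did not pass. With genes of mean TPM 5 or more, 2 of the 6 were tested and 1 was called.

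Further piRNA and recombination genes also moved both ways. Of 16 other piRNA and nuage genes 11 were tested, and 5 were higher and 3 lower (median 0.19). The tudor gene Tdrd5 had 7.17 ± 1.06 TPM in EpiLCs and 0.477 ± 0.0121 TPM in ESCs, a rise of 2.46, and the PIWI genes Piwil4 and Piwil1 rose by 1.23 and 0.72. These 3 genes averaged under 1 TPM in ESCs and entered the test through their EpiLC values, so their calls carry little weight for the list. The other genes called higher, Ddx4 and Pnldc1, rose by 0.61 and 0.64, while Pld6 and Rnf17 fell by 0.59 and 0.17. Fkbp6, a co-chaperone of piRNA loading, had 22.4 ± 5.55 TPM in EpiLCs and 62.8 ± 9.99 TPM in ESCs and fell by 1.46. Of 25 other recombination and synapsis genes 15 were tested, and 7 were higher and 4 lower (median 0.30). The central element genes 4930447C04Rik (Six6os1) and Syce3 rose by 1.62 and 1.23, and Iho1, which promotes DNA breaks, by 1.15. Rec114, which also promotes breaks, had 18.9 ± 5.05 TPM in EpiLCs and 43.1 ± 5.74 TPM in ESCs and fell by 1.17. These shares lie beside 36.1% higher and 30.9% lower over all tested genes.

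The repressors known to act on such promoters were expressed in both states. Of 19 PRC1.6 subunits and histone-modifying repressors, 9 were higher and 5 lower (median 0.11), and the lower count was 3 without EpiLC replicate 1, EpiLC replicate 3, ESC replicate 2 or ESC replicate 3. The share called, 73.7%, was near the 66.9% over all tested genes. The histone methyltransferase gene Ehmt1 rose by 1.10, the PRC1.6 subunit gene Yaf2 by 0.91 and the E2F partner gene Tfdp1 by 0.71, while Wdr5 fell by 0.77. E2f6 had 27.4 ± 0.400 TPM in EpiLCs and 20.3 ± 0.677 TPM in ESCs, and Mga 68.4 ± 4.98 TPM in EpiLCs and 68.0 ± 5.90 TPM in ESCs without passing. Of 6 DNA methylation genes 4 were higher and 2 lower. The de novo enzyme genes Dnmt3b and Dnmt3a rose by 5.09 and 4.32 and their cofactor gene Dnmt3l by 4.44, while Uhrf1 fell by 0.82.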

How the data were processed

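Poly(A) RNA libraries with strand selection were sequenced, per the labels' protocols. The authors deposited TPM values, 78298 genes by 6 libraries. The tools STAR, Salmon, FastQC and Trim Galore and the build mm39/GRCm39 are named per the submitters' processing notes; versions, roles and the annotation are not given in the sources used here.

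Columns were matched to samples by cell type and replicate number; their names also carry a tag, 0uM, that no label explains. The 14036 genes whose mean was at least 1 TPM were fitted as log2(TPM + 1) with limma 3.58.1 in R 4.3.3, using moderated variances with a trend. The p-values are two-sided and were adjusted by Benjamini-Hochberg across these genes, with calls at 0.05. The code was tested on simulated data. The members, lists, motifs and tests were chosen with earlier results of these data known. The 35 genes are all named, and of each other list up to 4 called genes with the largest change, with the counterparts. Some genes were added after their values were seen (Dmrt1, E2f6, Mga, Dppa3, Dab2, Gata4, Gata6, Sox17, Sox7, Pdgfra, Thy1, Dcn, Col1a1, Col1a2, Postn, Lum, Tfap2c, Ddx4, Dnd1, Pnldc1, Pld6, Rnf17). Promoters are from RefSeq (GRCm38.p6), chromosomes and overlaps from GENCODE M21, and similar transcripts from BLAST 2.17.0. Protein sequences were not used here, and some counterpart genes are not reported here. TPM keep no depth, so counting errors are not given. Alternatives changed the pseudocount (0.1, 0.5), the filter, the scaling, the variance trend, the replicate block and the libraries included. Python 3.11.15, pandas 2.3.3, numpy 2.4.6 and matplotlib 3.10.9 were used.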

Additional observations from a re-analysis of the deposited data

How the results depend on the processing

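The counts of 13 higher and 6 lower germline and meiosis genes ranged from 11 to 13 and from 5 to 7 when each library was left out, and were 12 and 5 with no filter and 10 and 5 of 22 tested at a mean TPM of at least 5. Other lists moved more. With a mean TPM of at least 5, 2 other piRNA genes and 1 meiotic entry regulator were called higher, where fewer genes were tested. PRC1.6 and repressor genes called lower numbered 3 with no filter, without the variance trend and without both replicate 2 libraries, and 3 to 4 when each library was left out; the cause was not tested. Uncalled genes changed direction without single libraries. Over those settings Stra8 ranged from -0.61 to 0.21, Hormad1 from -0.16 to 0.41 and Mov10l1 from -0.091 to 0.21 on the log2 scale, and Mov10l1 was -0.03 without both replicate 2 libraries. Calls of Brdt, Smc1b and Stk31 were also lost with no filter (adjusted p = 0.066, 0.096 and 0.054). Under other pseudocounts and scalings the 29 genes kept direction and call.

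Same-numbered libraries had deviations from their group means that correlated at 0.10, 0.14 and 0.06 across tested genes, the last under 0.1, so the numbers were not taken as pairs; each library correlated best with its own number, a hint from the data. With a replicate block, 14 of the genes were higher and 6 lower, and Tuba3b was the gene whose call changed (adjusted p = 0.018). Over all tested genes the replicate block gave 5135 higher and 4477 lower. Depth is unknown, so the precision of genes near or under 1 TPM cannot be given.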
